A study of Arabidopsis thaliana with 8 samples.

Results

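The genes described here are 52 genes of the plastid genome that encode the photosynthetic complexes, the plastid RNA polymerase and 4 further proteins. They were chosen by symbol. A probe set entered where its annotation listed 1 plastid-encoded gene only, with a symbol of the psa, psb, pet, ndh, atp, rpo or ycf families or rbcL, accD, matK or clpP. This gave 52 of the 22810 probe sets on the array, 1 for each gene, and 3 further probe sets of such symbols that list 2 gene copies were left out. The rule uses symbols and no measured value, but the set was taken up with earlier results of these data known.

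Developing seeds of the ttg1 mutant and of wild-type Ler (Landsberg erecta) were compared, with 4 biological replicates of each genotype and 1 Affymetrix ATH1 array for each replicate. The embryos were at stages between globular and walking-stick, and seeds had been taken out of the siliques before RNA extraction. TTG1 encodes a WD40-repeat scaffold for MYB and bHLH regulators of seed coat pigment, mucilage and trichomes. The labels give the mutant as ttg1-6 to ttg1-9 and the wild type as Ler-6 to Ler-9 without saying what the suffix means, and no treatment or growth condition is stated. Nothing says that the replicates came from separate plants, so each p-value covers only the spread seen among these 8 arrays.

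Plastids keep a small genome of their own. Its genes are transcribed by a bacterial-type RNA polymerase, whose core subunits are plastid-encoded, and by a phage-type polymerase from the nucleus. Most of the genes lie in operons, and the long transcripts are cut, edited and protected at their ends by nuclear-encoded proteins, so that members of 1 operon can differ in abundance. Developing Arabidopsis embryos are green for part of their growth and hold photosynthetically active plastids. Plastid transcripts mostly lack the stable poly(A) tails of nuclear mRNA, and short tails there mark RNA for decay. The labels state biotin labelling of cRNA without naming the primer, so which forms of plastid RNA were labelled is not known here.

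Every value is on a log2 scale, as the distance of a probe set from its own 8-array median. The values therefore compare arrays and give no absolute level, and genes cannot be ranked by abundance. The labelled tissue could not be checked by presence or absence of its markers for the same reason. BAN and DFR, 2 of 8 seed coat genes sought, were measured by name and had log2 changes of -6.43 and -6.99 in ttg1 relative to Ler. Over all 22746 probe sets tested, ttg1 replicate 4 had the widest deviation from its genotype's mean, with an SD of 0.245 against 0.115 to 0.184 on the other 7 arrays. The difference of 3' and 5' probe sets of actin, GAPDH and ubiquitin, a relative sign of RNA integrity, was -0.10, -0.01, 0.17 and -0.08 in ttg1 replicates 1 to 4, against -0.02, 0.00, -0.03 and 0.00 in Ler replicates 1 to 4. ttg1 replicate 4 lay inside the range of the other ttg1 arrays on that measure. Precision throughout is limited by having 4 arrays per genotype.

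The comparison of ttg1 with Ler asked which transcripts of the seed differ without TTG1 function. Of the 52 plastid transcripts, 8 rose and 3 fell in ttg1, and 41 did not pass the test. The risers were rpoC1, psbB, psbN, petN, psaC, ndhD, ndhG and ndhH, with log2 changes from 0.46 to 2.14, and the fallers were petL, rbcL and psbJ, with log2 changes of -1.11, -0.91 and -0.44. The test was limma's moderated test over all 22746 probe sets, with a Benjamini-Hochberg adjusted p under 0.05. Of the plastid transcripts 15.4% were higher and 5.77% lower in ttg1, against 1.76% and 3.96% of all probe sets. An unadjusted p under 0.05 was reached by 22 of the 52, against 23% of all probe sets. The calls depended on single arrays. The number that rose was 5 without ttg1 replicate 2, Ler replicate 1 or Ler replicate 2, and 4 without Ler replicate 3 or Ler replicate 4. Over all 22746 probe sets the number higher was 358, 233, 164, 190 and 280 in these fits in that order, against 400 on 8 arrays. The number that fell was 1 without ttg1 replicate 3, ttg1 replicate 4, Ler replicate 1 or Ler replicate 3. Over all probe sets 792, 758, 535 and 548 were lower in these fits, against 900 on 8 arrays. Calls were thus lost over the whole table too. The calls of petN, psaC, ndhD, psbB and petL held in all 8 fits that each left out 1 array.

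The median log2 change of the 52 was 0.09, against 0.03 over all probe sets tested, and 35 of the 52 had a change above 0, which 55.6% of all probe sets had. All 4 ttg1 values lay above all 4 Ler values in 9 of the 52 (6.51% of all probe sets) and below them in 3 (8.33% of all probe sets). The 9 were the 8 that rose and ndhF, and the 3 were petL, psbJ and petA. In whole seeds fewer cells of a type and less RNA per cell cannot be told apart, nor can the number of plastids and the RNA in each.

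**Figure D1:**
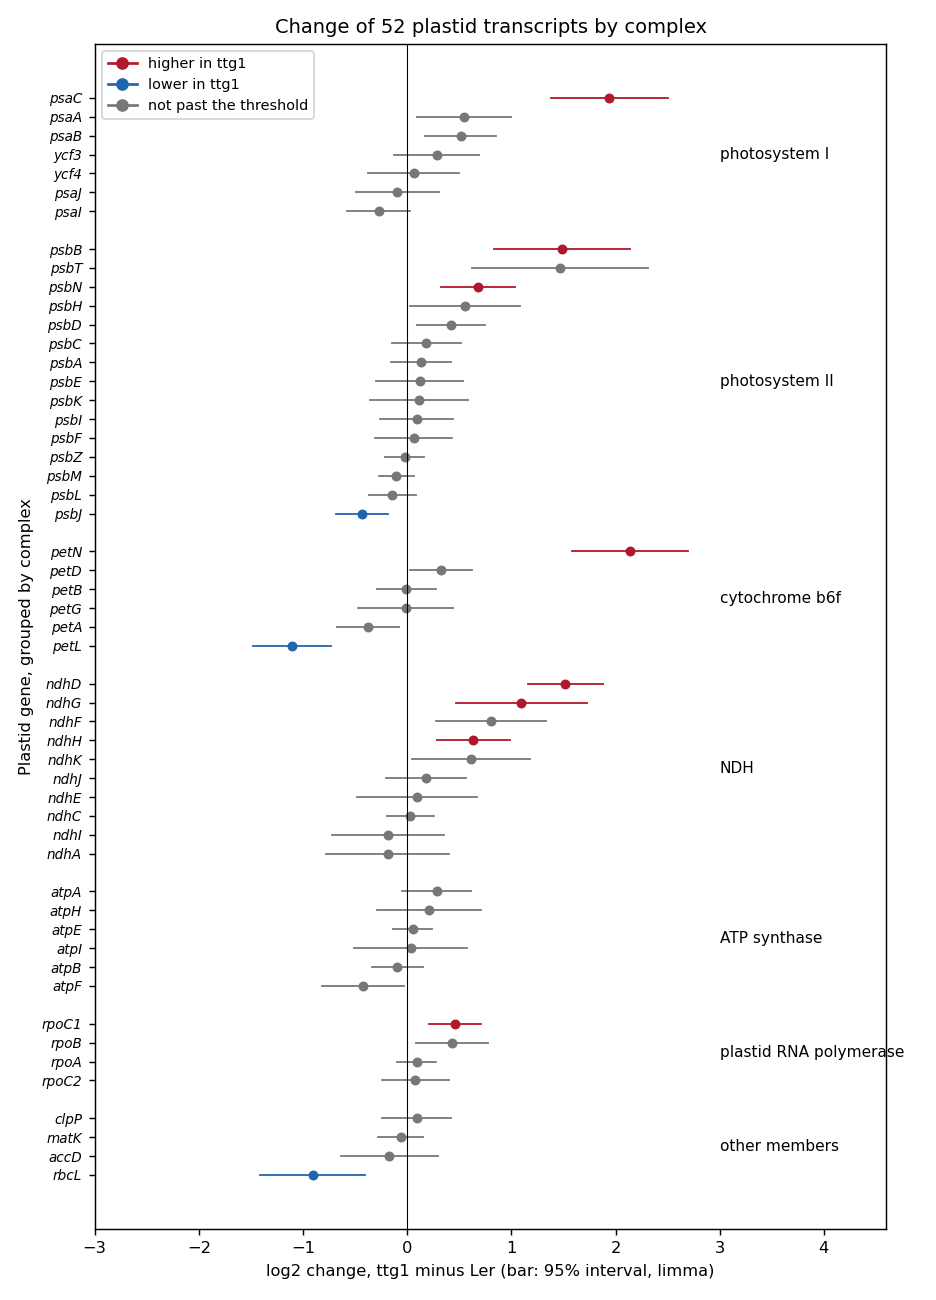
Log2 change of each of the 52 plastid transcripts (x axis, ttg1 minus Ler, points with the 95% interval from limma), grouped by complex (y axis). Red points rose in ttg1, blue points fell and grey points did not pass the test; petN at 2.14 and petL at -1.11, both of the cytochrome b6f complex, are the extremes.

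The cytochrome b6f complex passes electrons between the photosystems and held the highest and the lowest change of all 52. Transcripts of petN, which encodes one of its small membrane subunits, were 4.4-fold higher in ttg1. petN had log2 values of 0.90, 0.63, 1.22 and 2.01 in ttg1 replicates 1 to 4, against -0.63, -0.90, -1.13 and -1.13 in Ler replicates 1 to 4. All 4 ttg1 arrays were above all 4 Ler arrays, and ttg1 replicate 4 was the highest. This gave a log2 change of 2.14 ± 0.25 (SE, n = 4 arrays per genotype, adjusted p 0.000564 in limma).

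petL, another small subunit, was 2.16-fold lower. petL had log2 values of -0.25, -0.93, -0.75 and -0.48 in ttg1 replicates 1 to 4, against 0.91, 0.44, 0.25 and 0.45 in Ler replicates 1 to 4. Every ttg1 array was below every Ler array, and ttg1 replicate 4 lay inside the range of the other ttg1 arrays. Its log2 change was -1.11 ± 0.17 (adjusted p 0.00316 in limma). The transcripts of the 4 other b6f subunits did not pass the test. petA, which encodes cytochrome f, had a log2 change of -0.38 ± 0.13 (adjusted p 0.128 in limma), and petD, subunit IV, had 0.32 ± 0.13. petB, cytochrome b6, and petG, a small subunit, had -0.01 and -0.02, with 95% intervals of -0.29 to 0.27 and -0.47 to 0.44. The median over the 6 genes was -0.01.

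Of 7 genes of photosystem I and its assembly, psaC alone passed the test. It encodes the subunit that carries the terminal iron-sulphur clusters and was 3.84-fold higher in ttg1. psaC had log2 values of 0.92, 0.50, 1.04 and 1.91 in ttg1 replicates 1 to 4, against -0.92, -0.50, -0.88 and -1.11 in Ler replicates 1 to 4. The groups did not overlap, and ttg1 replicate 4 was again the highest. The log2 change was 1.94 ± 0.25 (adjusted p 0.0011 in limma). psaA and psaB, which encode the reaction centre proteins, had log2 changes of 0.55 ± 0.20 and 0.51 ± 0.15 and adjusted p-values of 0.144 and 0.0801. For both genes ttg1 replicate 4 was the lowest ttg1 array. psaB had log2 values of 0.28, 0.25, 0.09 and -0.04 in ttg1 replicates 1 to 4, against -0.24, 0.04, -0.53 and -0.73 in Ler replicates 1 to 4. The ttg1 and Ler arrays overlapped there, and psaB passed the test without Ler replicate 2 (adjusted p 0.0346 in limma). The assembly factor genes ycf3 and ycf4 had 0.28 and 0.06, and the small subunits psaJ and psaI had -0.09 and -0.27.

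Photosystem II was measured through 15 genes, of which psbB and psbN rose and psbJ fell. psbB encodes CP47, an inner antenna protein, and was 2.8-fold higher. psbB had log2 values of 0.45, 0.50, 0.47 and 1.65 in ttg1 replicates 1 to 4, against -0.45, -0.48, -0.49 and -1.44 in Ler replicates 1 to 4. On 3 arrays of each genotype psbB was almost constant, while replicate 4 of both genotypes lay far out and in opposite directions. The log2 change was 1.48 ± 0.30 (adjusted p 0.0151 in limma) and was 1.19 without ttg1 replicate 4 (adjusted p 0.00915).

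psbN, needed for the assembly of photosystem II, was 1.6-fold higher, with a log2 change of 0.68 ± 0.16 (adjusted p 0.0344 in limma). psbN had log2 values of 0.23, 0.12, 0.26 and 0.91 in ttg1 replicates 1 to 4, against -0.41, -0.26, -0.12 and -0.44 in Ler replicates 1 to 4. The groups did not overlap, and the largest ttg1 value was that of replicate 4. psbN is read from the strand opposite to the psbB operon between psbT and psbH.

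psbJ, a small subunit, was 1.35-fold lower. psbJ had log2 values of -0.41, -0.01, -0.17 and -0.37 in ttg1 replicates 1 to 4, against 0.32, 0.30, 0.16 and 0.01 in Ler replicates 1 to 4. The 2 genotypes were next to each other without overlap, between -0.01 in ttg1 and 0.01 in Ler. The log2 change of -0.44 ± 0.11 had an adjusted p of 0.0497 in limma, close to the threshold. Just past the threshold on the other side was psbT, a small subunit, with a larger change of 1.47 ± 0.38 and an adjusted p of 0.0513. psbT had log2 values of -0.18, 1.25, 1.50 and 1.97 in ttg1 replicates 1 to 4, against 0.18, -0.30, -0.45 and -0.74 in Ler replicates 1 to 4. ttg1 replicate 1 was low and overlapped with Ler, while the other 3 ttg1 arrays were above all Ler arrays. Leaving out that array brought the log2 change of psbT to 1.90 and past the test (adjusted p 0.00151 in limma).

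The reaction centre genes psbA (D1) and psbD (D2) did not pass, with log2 changes of 0.13 ± 0.13 and 0.42 ± 0.15, nor did psbC, the CP43 antenna protein, with 0.18 ± 0.15. psbH had 0.55 ± 0.24, and psbE and psbF, the subunits of cytochrome b559, had 0.12 and 0.06. The other 5, psbK, psbI, psbL, psbM and psbZ, lay between -0.14 and 0.11.

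The NDH complex, which returns electrons to the plastoquinone pool around photosystem I, had 10 measured subunits, of which ndhD, ndhG and ndhH rose. ndhD, a membrane subunit, was 2.86-fold higher. ndhD had log2 values of 0.48, 0.88, 0.90 and 1.35 in ttg1 replicates 1 to 4, against -0.48, -0.48, -0.80 and -0.71 in Ler replicates 1 to 4. The genotypes were apart by 0.95 between their nearest arrays, and the log2 change was 1.52 ± 0.16 (adjusted p 0.000276 in limma).

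ndhG, another membrane subunit, was 2.14-fold higher, with a log2 change of 1.09 ± 0.28 (adjusted p 0.0499 in limma). ndhG had log2 values of 0.06, 0.57, 0.15 and 1.26 in ttg1 replicates 1 to 4, against -0.06, -0.41, -0.65 and -1.21 in Ler replicates 1 to 4. The lowest ttg1 array and the highest Ler array were close, and replicate 4 was the highest in ttg1 and the lowest in Ler. ndhH, of the arm that faces the stroma, was 1.55-fold higher, with a log2 change of 0.64 ± 0.16 (adjusted p 0.0441 in limma). ndhH had log2 values of 0.25, 0.21, 0.09 and 0.84 in ttg1 replicates 1 to 4, against -0.09, -0.35, -0.20 and -0.51 in Ler replicates 1 to 4. Here too the groups did not overlap and replicate 4 was the highest ttg1 array. With 1 array left out, ndhG and ndhH each passed the test in 2 of 8 fits. Neither passed without ttg1 replicate 2 or without Ler replicate 2, 3 or 4.

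The other 7 NDH subunits did not pass. ndhF had log2 values of 0.05, 0.31, 1.22 and 1.20 in ttg1 replicates 1 to 4, against -0.09, -0.22, -0.05 and -0.09 in Ler replicates 1 to 4. These arrays did not overlap, and ttg1 replicates 3 and 4 were the high ones. With a log2 change of 0.80 ± 0.24, it had an adjusted p of 0.0781 in limma, and of 0.0227 without ttg1 replicate 1. ndhK had 0.61 ± 0.25, with its highest value of 1.25 in ttg1 replicate 2. ndhJ, ndhE and ndhC had 0.18, 0.09 and 0.03, and ndhI and ndhA had -0.19 and -0.19. The median over the 10 genes was 0.40, the highest of the 7 groups.

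**Figure D2:**
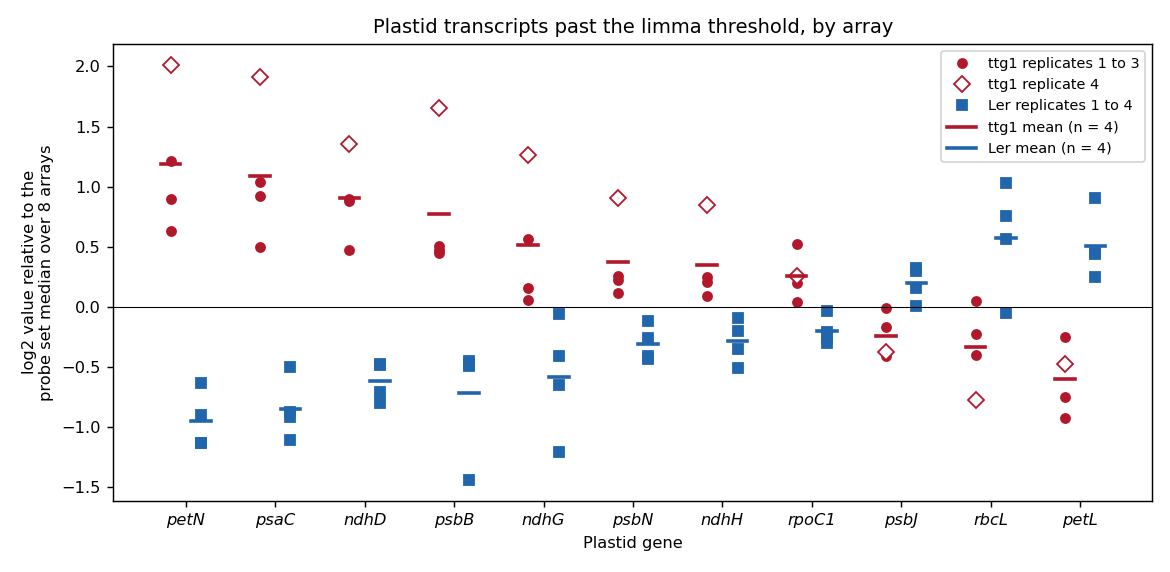
Log2 values relative to the probe set median (y axis) of the 11 plastid transcripts past the threshold (x axis), by array. Red marks are ttg1 arrays with replicate 4 as an open diamond, blue squares are Ler arrays and bars are means; replicate 4 is the highest ttg1 array in 7 of the 8 risers, and the genotypes overlap only in rbcL.

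The ATP synthase, with 6 genes, had no transcript past the test in either direction, and 1 of the 6 reached an unadjusted limma p under 0.05, which 23% of all probe sets did. The highest change was that of atpA, the alpha subunit, at 0.28 ± 0.15, and the lowest that of atpF, a subunit of the stator stalk, at -0.43 ± 0.18. atpF had log2 values of -0.24, -0.01, 0.03 and -0.44 in ttg1 replicates 1 to 4, against 0.80, 0.26, 0.01 and -0.02 in Ler replicates 1 to 4. The arrays of both genotypes overlapped. The genes of the beta and epsilon subunits, atpB and atpE, had -0.09 and 0.05, with 95% intervals of -0.33 to 0.15 and -0.13 to 0.23. atpH and atpI, of the membrane part, had 0.21 and 0.03. The median of the 6 was 0.04.

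All 4 subunits of the plastid RNA polymerase had a change above 0, and 1 passed the test. rpoC1 (beta prime subunit) was 1.37-fold higher. rpoC1 had log2 values of 0.53, 0.19, 0.04 and 0.26 in ttg1 replicates 1 to 4, against -0.21, -0.04, -0.26 and -0.30 in Ler replicates 1 to 4. ttg1 replicate 1, not replicate 4, was the highest. For rpoC1 the log2 change was 0.46 ± 0.11 (adjusted p 0.0398 in limma). rpoB, the beta subunit, had 0.43 ± 0.16 (adjusted p 0.138), and rpoA and rpoC2, the alpha and beta double prime subunits, had 0.09 and 0.08.

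Of the 4 remaining genes rbcL fell. It encodes the large subunit of Rubisco, the enzyme that fixes carbon dioxide, and was 1.88-fold lower in ttg1. rbcL had log2 values of 0.05, -0.22, -0.40 and -0.77 in ttg1 replicates 1 to 4, against 0.56, -0.05, 1.03 and 0.76 in Ler replicates 1 to 4. The genotypes overlapped, since Ler replicate 2 lay below ttg1 replicate 1. The log2 change was -0.91 ± 0.23 (adjusted p 0.0428 in limma). accD, a subunit of the plastid acetyl-CoA carboxylase of fatty acid synthesis, had -0.17 ± 0.21. matK, an intron maturase, had -0.06 ± 0.10, and clpP, a protease subunit, had 0.09 ± 0.15.

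ttg1 replicate 4 was the highest ttg1 array in 7 of the 8 risers, all but rpoC1. Among the 52 it was the highest ttg1 array in 15, or 28.8%, against 34.7% of all probe sets tested. Without it 6 plastid transcripts rose (1.74% of all probe sets) and 1 fell (3.33% of all probe sets). petN, psaC, ndhD, psbB, psbN and ndhH still rose, with log2 changes of 1.86, 1.67, 1.37, 1.19, 0.50 and 0.47, and petL still fell, with -1.15. ndhG, rpoC1, rbcL and psbJ had 0.84, 0.46, -0.76 and -0.39 and did not pass, with adjusted p-values of 0.069, 0.0631, 0.0781 and 0.0931 in limma. The change of petL was slightly wider and that of rpoC1 nearly the same without this array. The median of the 52 was 0.11 without it. By complex the median without it was 0.28 for NDH, 0.21 for photosystem I, 0.15 for photosystem II, -0.04 for cytochrome b6f and 0.04 for ATP synthase. It was 0.19 for the plastid RNA polymerase and -0.09 for the remaining genes.

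**Figure D3:**
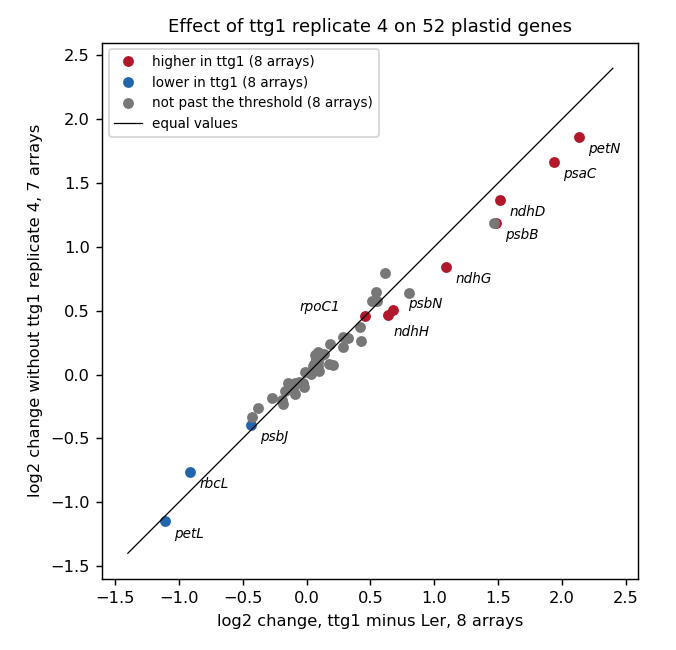
Log2 change of the 52 plastid transcripts, ttg1 minus Ler, on all 8 arrays (x axis) and without ttg1 replicate 4 (y axis), with the line of equal values. Red and blue points are the transcripts that rose and fell on 8 arrays; petN lies at 2.14 and 1.86, and petL at -1.11 and -1.15.

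Changed transcripts lay in 5 transcription units and in 3 genes given singly. In the ndhH-ndhD unit, whose 7 measured members run ndhD, psaC, ndhE, ndhG, ndhI, ndhA and ndhH on the map, 4 rose and 3 did not pass. Their log2 changes in that order were 1.52, 1.94, 0.09, 1.09, -0.19, -0.19 and 0.64. The genes that passed the test were not all adjacent on the map. ndhE, a small membrane subunit between psaC and ndhG, had log2 values of -0.14, 0.22, -0.09 and 0.27 in ttg1 replicates 1 to 4, against 0.80, 0.09, -0.34 and -0.66 in Ler replicates 1 to 4. Its arrays overlapped, and its spread within Ler was wider than the difference between the genotypes.

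Neighbours were compared through the difference between 2 adjacent members on each array, for 30 pairs over all units, with exact two-sided permutation tests. With 4 arrays per genotype the smallest p is 0.0286, and after Benjamini-Hochberg adjustment over 30 pairs the smallest was 0.143, so that no pair passed. In 6 of the 30 pairs the genotypes did not overlap, which by itself fixes p at 0.0286 (exact permutation). No such share was taken over other pairs of probe sets. Among single probe sets, 6.51% had all ttg1 values above all Ler values and 8.33% had them below. The widest of the 6 pairs was psaC and ndhE. Here ndhE minus psaC came to -1.02 ± 0.56 in ttg1 and 0.82 ± 0.60 in Ler (mean ± SD over 4 arrays), a difference of -1.85 between the changes of these 2 genes. ndhI minus ndhG was -0.62 ± 0.52 in ttg1 and 0.66 ± 0.36 in Ler, and ndhG minus ndhE was 0.44 ± 0.37 in ttg1 and -0.56 ± 0.23 in Ler.

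In the petL unit petL fell, while petG and psaJ, which follow it, had log2 changes of -0.02 and -0.09. The next genes of this unit, rpl33 and rps18, lay outside the chosen genes and had -0.42 ± 0.14 and -0.31 ± 0.11. Neither passed the test (adjusted p 0.113 and 0.138 in limma), but for both every ttg1 array was below every Ler array. petG minus petL was 0.59 ± 0.43 in ttg1 and -0.50 ± 0.27 in Ler, again without overlap. In the psbE unit psbJ fell, and psbL, psbF and psbE had -0.14, 0.06 and 0.12. psbL minus psbJ was 0.18 ± 0.20 in ttg1 and -0.11 ± 0.08 in Ler, without overlap. The sixth pair lay in the atpI unit, where no transcript passed the test, and atpF minus atpA was -0.30 ± 0.43 in ttg1 and 0.41 ± 0.25 in Ler.

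In the psbB unit psbB and psbT had nearly equal changes of 1.48 and 1.47, although only psbB passed the test. psbH had 0.55, and petB and petD, which follow it, had -0.01 and 0.32. In the rpoB unit rpoC1 and rpoB had 0.46 and 0.43, and rpoC2, which follows rpoC1, had 0.08. No neighbouring pair of these 2 units was free of overlap. petN, rbcL and psbN are not grouped with other measured genes here. psbM, next to petN on the map, had a log2 change of -0.10 ± 0.08 with a 95% interval of -0.27 to 0.06. The gene spans of psbD and psbC share 53 bases and those of atpE and atpB share 4, so their transcripts overlap.

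**Figure D4:**
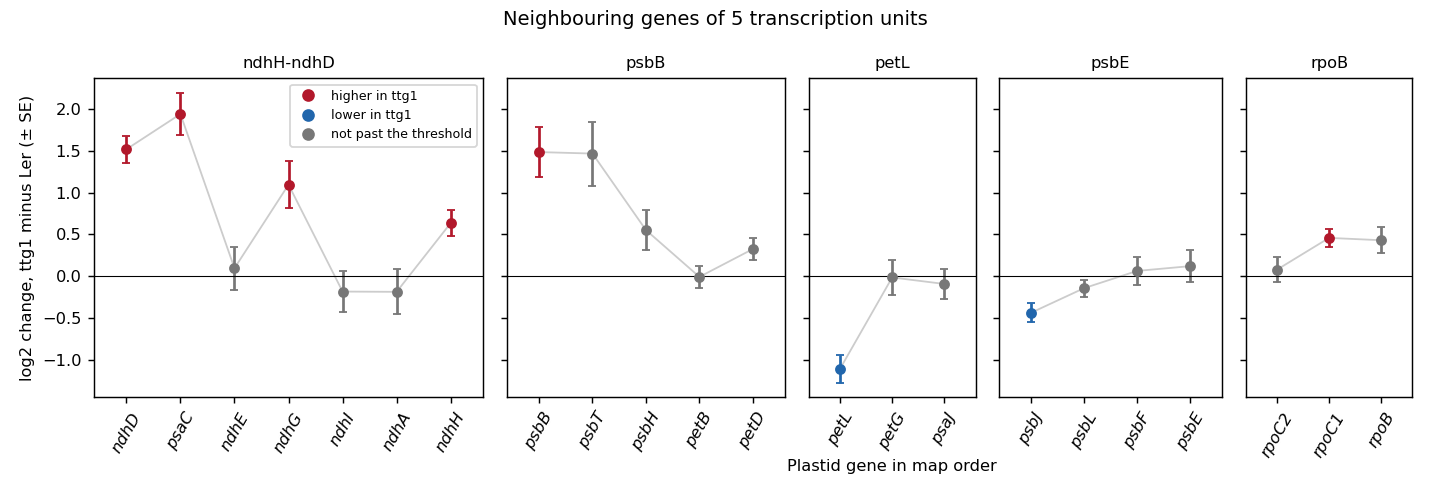
Log2 change, ttg1 minus Ler, with its SE (y axis) of neighbouring plastid genes (x axis, in RefSeq map order) in the 5 transcription units that hold a changed transcript. In the ndhH-ndhD unit ndhE, ndhI and ndhA lie at 0.09, -0.19 and -0.19 between risers, and in the petL unit petL lies at -1.11 beside petG at -0.02. rpl33 and rps18, also of the petL unit but outside the chosen genes, had log2 changes of -0.42 and -0.31.

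The transcripts that did not pass the test varied together from array to array. Their median over 41 genes was 0.01, 0.10, -0.03 and 0.00 in ttg1 replicates 1 to 4, against 0.17, 0.12, -0.11 and -0.34 in Ler replicates 1 to 4. Ler replicates 1 and 2 were above every ttg1 array, and Ler replicates 3 and 4 were below them. Among all 52, Ler replicate 1 was the highest Ler array in 31 and Ler replicate 4 the lowest in 36, which is 59.6% and 69.2% against 30.8% and 27.4% of all probe sets. Over all 52 genes the array medians averaged 0.05 ± 0.05 in ttg1 and -0.07 ± 0.22 in Ler (SD, n = 4 each), so the spread within Ler was larger than the difference between the genotypes. Among all 52, pairs of genes in 1 unit had a median correlation of 0.54 between their deviations from the genotype means over 8 arrays (64 pairs). Other pairs had 0.31 (1262 pairs). The log2 changes of 2 genes differed by nearly the same median amount, 0.44 in pairs of 1 unit and 0.45 in other pairs. These correlations and differences are descriptions, since all genes share the arrays and the RNA samples.

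**Figure D5:**
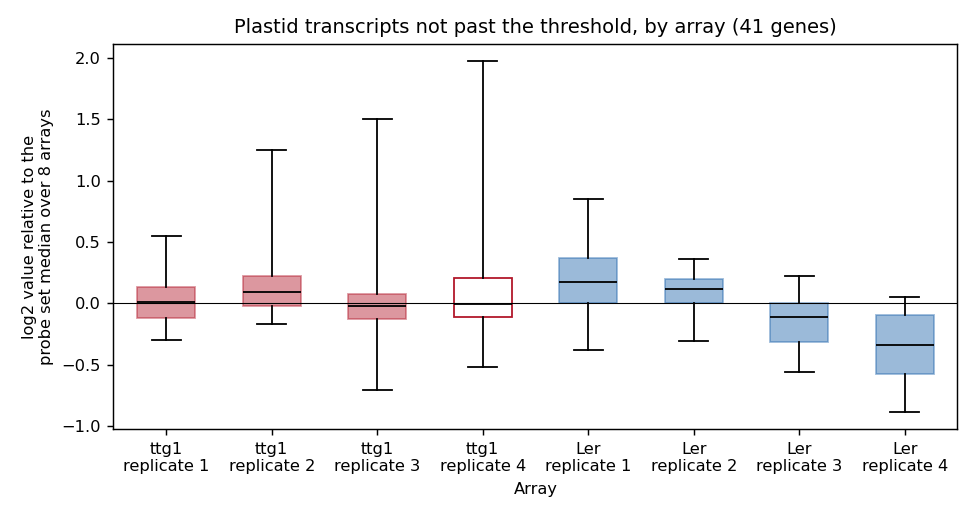
Log2 values relative to the probe set median (y axis) of the 41 plastid transcripts that did not pass the test, by array (x axis), with red boxes for ttg1 (replicate 4 unfilled) and blue boxes for Ler. Boxes give quartiles and median and whiskers the full range; the medians of Ler run from -0.34 in replicate 4 to 0.17 in replicate 1.

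Seed storage markers, which rise as embryos mature, separated the arrays in a way that cut across the genotypes. Of 12 storage and oleosin genes sought, 2 were measured, PAP85, a vicilin-like protein, and AT2G28490. Their mean was -0.83, 0.15, -0.15 and 1.92 in ttg1 replicates 1 to 4, against -1.21, -0.36, 0.38 and 1.87 in Ler replicates 1 to 4. Replicate 4 was the highest in both genotypes and replicate 1 the lowest. The Ler arrays thus stood in the opposite order to that of the median plastid transcript, whereas the ttg1 medians of the uncalled transcripts differed little. The part of seed age in the plastid values was not tested.

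Nuclear genes of photosynthesis were measured by name for 11 of 51 sought, not all of them for subunits of the complexes above. PORB and RCA, for example, are not. None of the 11 passed the test (2 had an unadjusted p under 0.05 in limma, against 23% of all probe sets). On 8 arrays 11 of 11 changes were above 0 with a median of 0.21, but without ttg1 replicate 4 this held for 6 of 11, with a median of 0.01. PORB, an enzyme of chlorophyll synthesis, had a log2 change of 0.79 ± 0.23 (adjusted p 0.0762 in limma, and 0.0459 without ttg1 replicate 1), and NdhL, a nuclear subunit of the NDH complex, had 0.21 ± 0.09 (adjusted p 0.195). PORB had log2 values of -0.03, 0.55, 0.25 and 1.10 in ttg1 replicates 1 to 4, against -0.71, -0.12, -0.51 and 0.03 in Ler replicates 1 to 4. ttg1 replicate 4 was the highest ttg1 array in 10 of the 11. The mean of the 11 was -0.15, 0.07, 0.02 and 0.66 in ttg1 replicates 1 to 4, against -0.29, -0.01, -0.14 and 0.05 in Ler replicates 1 to 4. These genes were high on the array on which 7 of the 8 plastid risers were highest, and the part of this in the plastid result was not tested.

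Of 26 nuclear genes sought for proteins that process plastid RNA, 9 were measured and 1 fell, against 3.96% of all probe sets. An unadjusted p under 0.05 in limma was reached by 1 of the 9, against 23% of all probe sets. CRR21 (AT5G55740), a pentatricopeptide repeat protein needed for editing of a site in the ndhD transcript, was 1.32-fold lower in ttg1. CRR21 had log2 values of -0.10, -0.19, -0.25 and -0.22 in ttg1 replicates 1 to 4, against 0.31, 0.29, 0.14 and 0.10 in Ler replicates 1 to 4. Every ttg1 array was below every Ler array (8.33% of all probe sets), and the log2 change was -0.40 ± 0.08 (adjusted p 0.0181 in limma). It did not pass without ttg1 replicate 3, Ler replicate 1 or Ler replicate 2, with adjusted p-values of 0.0503, 0.0607 and 0.0749. AT5G42310 had the next smallest adjusted p of 0.23, with a log2 change of 0.27 ± 0.13. The other 7, among them CRR22, CRR28 and LPA66 of RNA editing, had log2 changes between -0.10 and 0.18. Of 21 genes sought for transcription of the plastid genome, 1 was measured, AT5G15700, with 0.22 ± 0.10 (adjusted p 0.223 in limma).

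Markers of other tissues were few by name. YAB3 and ALC were measured of 8 silique wall genes, with log2 changes of 0.67 ± 0.23 and -0.47 ± 0.21, and their mean ranged from -0.30 to 0.20 in ttg1 and from -0.23 to 0.10 in Ler. That mean joins 2 changes of opposite sign. For YAB3 every ttg1 array was above every Ler array (6.51% of all probe sets), with 0.04 in ttg1 and -0.04 in Ler nearest, while ALC overlapped. YAB3 was at 0.98 in ttg1 replicate 4 and at 0.17 or below on the other ttg1 arrays. AGL62, IKU2 and AGL28 were measured of 9 endosperm genes, with -0.01, 0.23 and 0.09. Neither list had a gene past the test, although 2 silique wall and 0 endosperm genes had an unadjusted p under 0.05 in limma (23% over all probe sets). Without ttg1 replicate 3 ALC had an adjusted p of 0.0498. The part of these tissues in the plastid values was not tested.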

How the data were processed

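Total RNA from developing seeds was measured on 8 ATH1 arrays, 4 of ttg1 and 4 of Ler, grouped by title. The deposited values are log2 RMA values, per the submitters' processing notes, with no version given. In this deposited log2 table the 8-array median of every probe set is 0 to within 5e-07, which shows centring per probe set, a step not given in the sources used here. Signal over background is therefore unknown, and no dim probe set could be left out. No pair of arrays was alike (SD of their difference at least 0.195).

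The 64 control probe sets were left out, and ttg1 minus Ler was fitted for 22746 probe sets in R 4.3.3 with the lmFit and eBayes functions of limma 3.58.1 (no covariates, two-sided, Benjamini-Hochberg adjustment over all of them, threshold 0.05). Errors of log2 changes are limma's. Simulated data recovered 24, 46, 50 and 50 of 50 probe sets changed by 0.5, 1, 2 and 4 on the log2 scale and called 10 of 22546 unchanged ones. The simulated noise was normal and independent between probe sets and arrays, with each probe set's own spread. Transcripts of the real arrays varied together, so these counts do not give the error rate of the reported calls.

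Genes were named from the platform's annotation table. All 52 genes were matched to the plastid genome of the RefSeq gene table (assembly TAIR10.1), used for gene order and length only, since the sources used here give no build. Operons follow textbook knowledge. Mitochondrial genes were matched by symbol, because their identifiers were not in that table. The transcripts past the threshold are given in full, with the other members of their units, the extremes of the complex without one, and, per list, the genes past the threshold or the 2 with the smallest adjusted p; other members and markers were named as well to account for all. The members and lists were chosen with earlier results of these data known, so list counts are descriptions. The pairs of neighbours were chosen after the values had been seen.

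Alternatives were the replicate block, quantile normalization, centring of arrays, robust eBayes, array weights, an unmoderated test, a threshold of 0.01, averaging per gene and the omission of each array; the omission of ttg1 replicates 1 and 4 together, the arrays with the lowest weights, was added after seeing the data. A filter on dim probe sets needs levels and was not run.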

Additional observations from a re-analysis of the deposited data

Results flagged for a closer look

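In 104 groups of 4 arrays (52 transcripts in each genotype), 5 held 1 array far from the other 3 by Dixon's test at the 95% level, and about 1 in 20 groups would by chance. psbB was at 1.65 in ttg1 replicate 4, against 0.45 to 0.50 on the other ttg1 arrays, and at -1.44 in Ler replicate 4, against -0.49 to -0.45 on the other Ler arrays. petA was at -0.52 in ttg1 replicate 4, against -0.06 to -0.03 on the other ttg1 arrays. psaI was at -0.21 in Ler replicate 4, against 0.18 to 0.23 on the other Ler arrays. rpoB was at 0.0419 in Ler replicate 3, against -0.29 to -0.25 on the other Ler arrays. The cause of these values was not tested.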

How the results depend on the processing

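No alternative changed the sign of any of the 11 transcripts, and the median change of the 52 stayed between 0.01 and 0.20. petN, psaC and ndhD passed in all 17 alternatives, petL in 16 and psbB in 15. ndhG passed in 5, rpoC1 and psbJ in 6, ndhH and rbcL in 8 and psbN in 9. The number that rose was 8. It was 3 with the unmoderated test and 3 at a threshold of 0.01, and 4 to 7 with 1 array left out. The number that fell was 3, and it was 0 with the unmoderated test (limma without moderation). It was 1 at a threshold of 0.01, 1 to 2 with 1 array left out and 1 without ttg1 replicates 1 and 4 together. In the unmoderated test 11 of the 52 were higher and 4 lower at an unadjusted p under 0.05. No share of all probe sets is given here for these unadjusted counts or for the threshold of 0.01, so they are descriptions. With the replicate number as a block, 14 rose and 4 fell. The calls over all 22746 probe sets moved the same way. There 687 were higher and 1283 lower with the block, and 168 and 409 with the unmoderated test, against 400 and 900 in the main fit. With 1 array left out, 164 to 401 of all probe sets were higher and 509 to 854 lower. The labels give no pairing by number, and same-numbered arrays did not deviate together throughout, with correlations of 0.08, 0.03, -0.31 and 0.48 for numbers 1 to 4; of the ttg1 arrays, only replicate 4 correlated best with its own number. The cause of these moves was not tested. Because the values are centred, signal over background is unknown for every transcript.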

Other observations

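The 17 other plastid genes measured singly, mostly for ribosomal proteins, had no transcript past the test on 8 arrays, while 6 had an unadjusted p under 0.05 in limma, against 23% of all probe sets. rps14 and rpl32 passed when ttg1 replicate 2 was left out (adjusted p 0.0466 and 0.0362) and when ttg1 replicate 4 was left out (adjusted p 0.0165 and 0.0278). On 8 arrays the median log2 change of the 17 was -0.03, and their changes ran from -0.67 for rpl32 to 0.89 for rps14. rps14 had log2 values of 0.36, 0.09, 0.51 and 1.62 in ttg1 replicates 1 to 4, against -0.23, -0.34, -0.09 and -0.33 in Ler replicates 1 to 4. rps14 shares a unit with psaA and psaB, and its arrays did not overlap between the genotypes, with an adjusted p of 0.0778 in limma. rpl32 had log2 values of -0.40, -0.10, -0.36 and -1.16 in ttg1 replicates 1 to 4, against 0.32, 0.15, 0.10 and 0.10 in Ler replicates 1 to 4. rpl32 was lower on every ttg1 array than on every Ler array (log2 change -0.67 ± 0.19, adjusted p 0.0638 in limma). rpl33 and rps18, which follow petL, petG and psaJ on the map and belong to the same unit, had -0.42 ± 0.14 and -0.31 ± 0.11. Their arrays did not overlap between the genotypes either. All 4 ttg1 values lay above all 4 Ler values in 1 of the 17 (6.51% of all probe sets) and below them in 3 (8.33% of all probe sets). ccsA, a factor of cytochrome c assembly beside ndhD and in its unit, had 0.48 ± 0.17 (adjusted p 0.131 in limma).

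Of 18 mitochondrial probe sets matched by symbol, 7 of them for nad1, 1 fell and none rose. Over all probe sets 3.96% were lower and 1.76% higher. An unadjusted p under 0.05 in limma was reached by 2 of the 18, against 23% of all probe sets. cox1, a subunit of cytochrome c oxidase, had a log2 change of -0.90 ± 0.18 and fell 1.86-fold, with adjusted p 0.0175 by limma. cox1 had log2 values of -0.44, -0.19, -0.10 and -0.69 in ttg1 replicates 1 to 4, against 0.40, 0.87, 0.81 and 0.10 in Ler replicates 1 to 4. cox1 did not pass without Ler replicate 2, without Ler replicate 3 or without ttg1 replicates 1 and 4 together, with adjusted p-values of 0.0635, 0.0615 and 0.104. 8 of the 18 changes were above 0, the highest was 0.62 for 1 of the nad1 probe sets, and the median was -0.05.

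The 8 plastid transcripts that rose had gene spans of 90 to 2834 bases (median 856.5), the 3 that fell 96 to 1440 (median 123) and the 41 others 102 to 4131 (median 750.0). The part of gene length in the changes was not tested.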
